A study of Mus musculus with 8 samples.

Results

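The 5p arms of the miR-30 family are 5 mature microRNAs (miRNAs), mmu-miR-30a-5p, mmu-miR-30b-5p, mmu-miR-30c-5p, mmu-miR-30d-5p and mmu-miR-30e-5p, written below without the species prefix mmu. They were chosen by name on a mouse miRNA array, with every probe that carries one of these names and no control spots. They make up 5 of the 1881 mouse miRNAs on the array, 11 of its 4415 probes and 150 of its 56430 spots. The study measured miRNAs in whole kidney of C57BL/6 males, 8 weeks old. Kidneys had been obstructed for 7 days by closing off 1 ureter (unilateral ureteral obstruction, UUO), a mouse model in which the organ becomes inflamed and fibrotic, or were taken equally long after a sham operation. Each group had 4 samples with 1 array each, Sham 1, 2, 3 and 8 and UUO 1, 2, 3 and 4. No genotype other than the C57BL/6 strain and no drug is given for either group. The labels do not say in words that each sample came from a different mouse, so the p-values measure the spread between these samples, which may be technical.

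A miRNA guides an Argonaute protein to messenger RNAs, mostly through its seed, a short stretch near its 5′ end that pairs with sites in the target. Members of the miR-30 family share a seed and differ further along, so they are expected to recognise overlapping sets of targets. Each is cut from a hairpin precursor whose other side gives the 3p arm. The family is abundant in kidney epithelium, including podocytes, the filtration cells of the glomerulus. Its described targets include the matrix-associated growth factor Ctgf and the epithelial-mesenchymal transition factor Snai1.

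The mature sequences are shown because the shared seed is what makes these miRNAs a family. They are from RefSeq (GRCm38.p6) and were matched for 3 of the 5 members, miR-30a-5p, miR-30c-5p and miR-30e-5p. miR-30b-5p and miR-30d-5p have no entry in the sequence table used. Capitals mark the seed, bases 2 to 8 from the 5′ end.
miR-30a-5p: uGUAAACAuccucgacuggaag
miR-30c-5p: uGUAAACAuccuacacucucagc
miR-30e-5p: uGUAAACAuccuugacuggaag
miR-384-5p: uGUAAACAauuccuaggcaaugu
The 3 members carry the same seed, and miR-30a-5p and miR-30e-5p differ at a single base, C13U, counted from the 5′ end. miR-30a-5p and miR-30c-5p differ at 5 bases, the first of them base 13. Among the array miRNAs matched to the table, miR-384-5p was the only other one with this seed. It was not well above background on any of the 8 arrays, so no change can be given for it.

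The probes are shown because members this similar can only be told apart by the bases that their probes cover. For each member the brightest of its probes was used, here written 5′ to 3′ with capitals where it differs from the miR-30a-5p probe or, for the first base of the miR-30c-5p probe, extends past it.
miR-30a-5p probe: cttccagtcgaggatgt
miR-30e-5p probe: cttccagtcAaggatgt
miR-30d-5p probe: cttccagtcgGgga
miR-30c-5p probe: GctGAGagtGTaggatgt
miR-30b-5p probe: AGCTGagtGTaggatgt
Counted from the 5′ end of the probe, the miR-30e-5p probe differs from that of miR-30a-5p by G10A, and the miR-30d-5p probe by A11G over its 14 bases. With their last bases aligned, the miR-30c-5p and miR-30b-5p probes differ from it at 5 and 7 of 17 bases and from each other at 4. Cross-hybridisation between members was not tested.

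The hairpins lie in 3 pairs. On the mouse build mm9, as the array files list them, the miR-30a-5p probe is at chr1:23279119-23279134 on the plus strand and the miR-30c-5p probe matches chr1:23298558-23298575, also on the plus strand, in the hairpin Mir30c-2. The miR-30c-5p probe also matches chr4:120442160-120442177 on the minus strand, in Mir30c-1, and miR-30e-5p is at chr4:120445233-120445248 on the same strand. miR-30b-5p is at chr15:68169003-68169018 and miR-30d-5p at chr15:68172790-68172802, both on the minus strand. The 5p probe starts are 19439 bases apart on chromosome 1, 3073 on chromosome 4 and 3787 on chromosome 15. The listed spans are 1 base shorter than the probe except for miR-30c-5p. In RefSeq, Mir30c-1 and Mir30e lie inside the span of Nfyc, which encodes a subunit of the transcription factor NF-Y, and no protein-coding gene span contains the other 4 hairpins in the table used.

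Every array detected all 5 members. Each signal was divided by a reference level of its array, the 75th percentile among 623 probes found above background on every array, and is given as log2 of that ratio, called log2 scaled signal here. Before scaling, the reference level was 406 ± 8.67 intensity units in Sham and 465 ± 22.2 in UUO (mean ± SD, n = 4 each), and 720 to 754 probes were detected per Sham array against 740 to 800 per UUO array. No member probe was saturated. Of 408 miRNAs detected on at least 4 arrays and tested with limma, 162 were called higher and 113 lower in UUO at a Benjamini-Hochberg adjusted p under 0.05, a background of 39.7% called higher, 27.7% called lower and 67.4% called either way. Across other scalings that split ran from 240 higher and 64 lower, when scaled to control features, to 109 higher and 217 lower. The latter was with the total signal per miRNA given by the software Agilent Feature Extraction. All arrays were on 1 slide, with the Sham arrays in 1 row and the UUO arrays in the other, so slide row and group cannot be told apart.

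All 5 members fell in UUO, to between 42.3% and 71.6% of the Sham level. miR-30e-5p and miR-30c-5p fell by more than 2-fold, miR-30a-5p and miR-30b-5p by 1.68-fold and 1.60-fold, and miR-30d-5p by 1.40-fold. The background beside these counts is 27.7% of tested miRNAs called lower, 5.15% called and at least 2-fold lower, and 26.2% with every UUO array below every Sham array. The median log2 fold change of the 5 members was -0.75, against 0.06 over all 408 tested. In whole tissue, fewer cells that hold these miRNAs and less of them per cell cannot be told apart.

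miR-30e-5p, from the chromosome 4 pair, changed most. Its log2 scaled signal was 3.52, 3.45, 3.44 and 3.54 in Sham 1, 2, 3 and 8, and 2.25, 2.36, 2.29 and 2.08 in UUO 1, 2, 3 and 4. The groups lay 1.08 apart at their nearest arrays, with a spread of 0.09 among the Sham arrays and 0.28 among the UUO arrays. The log2 fold change was -1.24 ± 0.07 (SE), with a limma adjusted p of 1.18e-06, a 2.36-fold fall and the 10th lowest of the 408. Before scaling, the mean intensity was 4551 ± 237 in Sham and 2205 ± 116 in UUO (SD, n = 4 each).

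miR-30c-5p, which comes from hairpins on both chromosome 1 and chromosome 4, read 4.39, 4.30, 4.29 and 4.37 in Sham 1, 2, 3 and 8 and 3.28, 3.38, 3.29 and 3.08 in UUO 1 to 4 (log2 scaled signal). No array of either group came within 0.91 of the other group. The log2 fold change was -1.08 ± 0.07 (limma adjusted p = 2.92e-06), a 2.12-fold fall and the 15th lowest. Its unscaled intensity was 8216 ± 449 in Sham and 4440 ± 251 in UUO.

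miR-30a-5p, the chromosome 1 neighbour of Mir30c-2, read 4.25, 4.08, 4.09 and 4.28 in Sham 1, 2, 3 and 8 and 3.46, 3.50, 3.44 and 3.28 in UUO 1 to 4. The groups were 0.58 apart. Sham 1 and 8 sat above Sham 2 and 3 by 0.18, about the whole width of the Sham group. The log2 fold change was -0.75 ± 0.07 (limma adjusted p = 3.71e-05), 41st from the lowest. Unscaled intensity was 7344 ± 680 in Sham and 4978 ± 255 in UUO.

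miR-30b-5p and miR-30d-5p share the chromosome 15 locus and had the smallest changes. miR-30b-5p read 3.38, 3.11, 3.07 and 3.32 in Sham 1, 2, 3 and 8 and 2.57, 2.64, 2.54 and 2.42 in UUO 1 to 4. The groups were 0.43 apart, and the log2 fold change was -0.68 ± 0.09 (limma adjusted p = 0.000204), 45th from the lowest. Its Sham arrays divided into a higher pair, 1 and 8, and a lower pair, 2 and 3, that differed by 0.26.

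miR-30d-5p read 1.06, 0.84, 0.81 and 1.07 in Sham 1, 2, 3 and 8 and 0.50, 0.58, 0.44 and 0.34 in UUO 1 to 4. It had the narrowest gap between groups, 0.24, no wider than the step of 0.24 between Sham 1 and 8 and Sham 2 and 3. The log2 fold change was -0.48 ± 0.08 (limma adjusted p = 0.00108), 70th from the lowest. Unscaled intensity was 786 ± 90.0 in Sham and 641 ± 30.9 in UUO for miR-30d-5p, and 3794 ± 476 and 2705 ± 123 for miR-30b-5p.

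**Figure D1:**
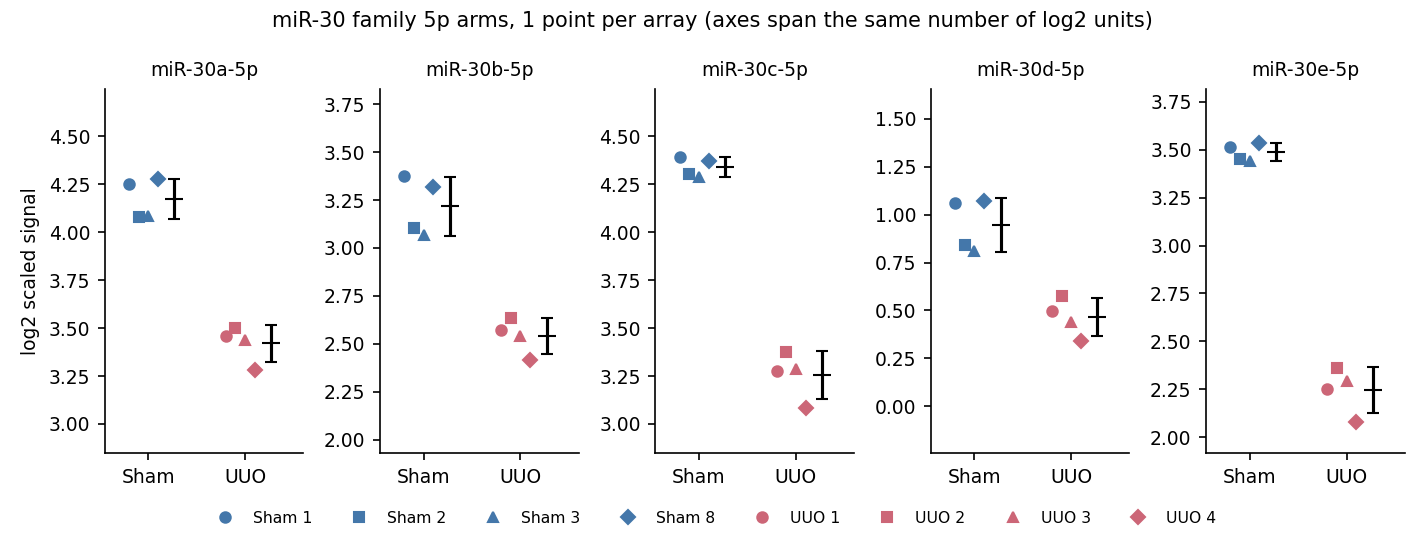
Log2 scaled signal of each miR-30 5p arm (vertical axis) on each Sham and UUO array, 1 point per array, with the group mean and SD as a bar at the right of each group; every panel spans the same number of log2 units, and levels are not comparable between panels. The groups are apart in all 5 panels, by 1.08 for miR-30e-5p down to 0.24 for miR-30d-5p, and Sham 1 and 8 lie above Sham 2 and 3 in each.

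The members also shared an order among arrays of 1 group. Sham 1 and 8 were above Sham 2 and 3 in all 5, by 0.18 for miR-30a-5p, 0.26 for miR-30b-5p, 0.09 for miR-30c-5p, 0.24 for miR-30d-5p and 0.08 for miR-30e-5p. In UUO, array 2 was highest and array 4 lowest for all 5. Neither order was particular to the family. The UUO order was also that of miR-126a-3p, miR-192-5p, miR-194-5p and miR-200b-3p. It was not that of miR-142a-3p, miR-223-3p, miR-199a-5p, miR-214-3p or miR-204-5p. Sham 1 and 8 were also above Sham 2 and 3 for miR-200b-3p, miR-126a-3p and miR-214-3p, the last by a very small margin for Sham 1. They were below them for miR-192-5p, miR-194-5p and miR-142a-3p. For miR-223-3p, miR-199a-5p and miR-204-5p the arrays were mixed. The share of all tested miRNAs with either order is not given here. Repeat spots of a member probe had a median SD of 0.03 to 0.06 within an array, over 8 to 15 spots used. UUO 2 also had the lowest reference level of the UUO arrays (435 intensity units, against 461 to 482), and before scaling UUO 1 was highest instead for all 5; the part of the scaling in this order was not tested. Against Sham 2 and 3 alone, chosen after their values were seen, the log2 fold changes were -0.66, -0.54, -1.04, -0.36 and -1.20 for miR-30a-5p to miR-30e-5p. Against Sham 1 and 8 alone they were -0.84, -0.81, -1.13, -0.60 and -1.28, and limma called all 5 lower in both fits, beside 25.0% and 25.2% of all tested.

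Each member was read by more than 1 probe, of 13 to 18 bases. All 11 probes were called lower when each was fitted on its own, where 27.2% of 771 probes were called lower. Their log2 fold changes ran from -1.24 to -0.47. Probes of the same member differed by at most 0.03, far less than members differed from each other, but they overlap in sequence and are no independent replicates.

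The members did not fall by equal amounts. The difference between each pair of members was taken within each array, where a factor common to the array cancels, and compared between groups by a two-sided exact permutation test, with Benjamini-Hochberg adjustment over the 10 pairs. With 4 arrays against 4 the smallest p possible is 0.0286. In 9 of 10 pairs the groups did not overlap and the exact p was 0.0286 (adjusted 0.0317). The share among pairs of other tested miRNAs is not given here. The 10 differences come from 5 members and are not independent of each other. The adjusted p depends on how many of the 10 pairs reach the smallest p. miR-30e-5p fell further than miR-30d-5p by 0.76 on the log2 scale, than miR-30b-5p by 0.56, than miR-30a-5p by 0.49 and than miR-30c-5p by 0.16.

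The closest of those, miR-30c-5p minus miR-30e-5p, was 0.88, 0.86, 0.84 and 0.84 in Sham 1, 2, 3 and 8 and 1.02, 1.02, 0.99 and 1.00 in UUO 1 to 4. Both groups were narrow, with SDs of 0.02 and 0.01, and every UUO array was above every Sham array. miR-30c-5p in turn fell further than miR-30a-5p by 0.33, than miR-30b-5p by 0.41 and than miR-30d-5p by 0.60. miR-30d-5p fell less than miR-30a-5p by 0.27 and than miR-30b-5p by 0.19.

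The pair that did not pass was miR-30a-5p minus miR-30b-5p. It was 0.88, 0.97, 1.02 and 0.96 in Sham 1, 2, 3 and 8 and 0.89, 0.87, 0.90 and 0.87 in UUO 1 to 4. Sham 1 fell among the UUO arrays, and the difference of -0.08 had an exact permutation p of 0.0857, also 0.0857 after adjustment. Quantile normalization, which does change ratios within an array, turned 3 of the passing differences and left none of those 3 past the threshold. Under it miR-30a-5p minus miR-30d-5p was 0.073 in place of -0.27, miR-30b-5p minus miR-30d-5p 0.11 in place of -0.19, and miR-30c-5p minus miR-30e-5p -0.11 in place of 0.16 (adjusted exact permutation p = 0.190, 0.179 and 0.179).

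**Figure D2:**
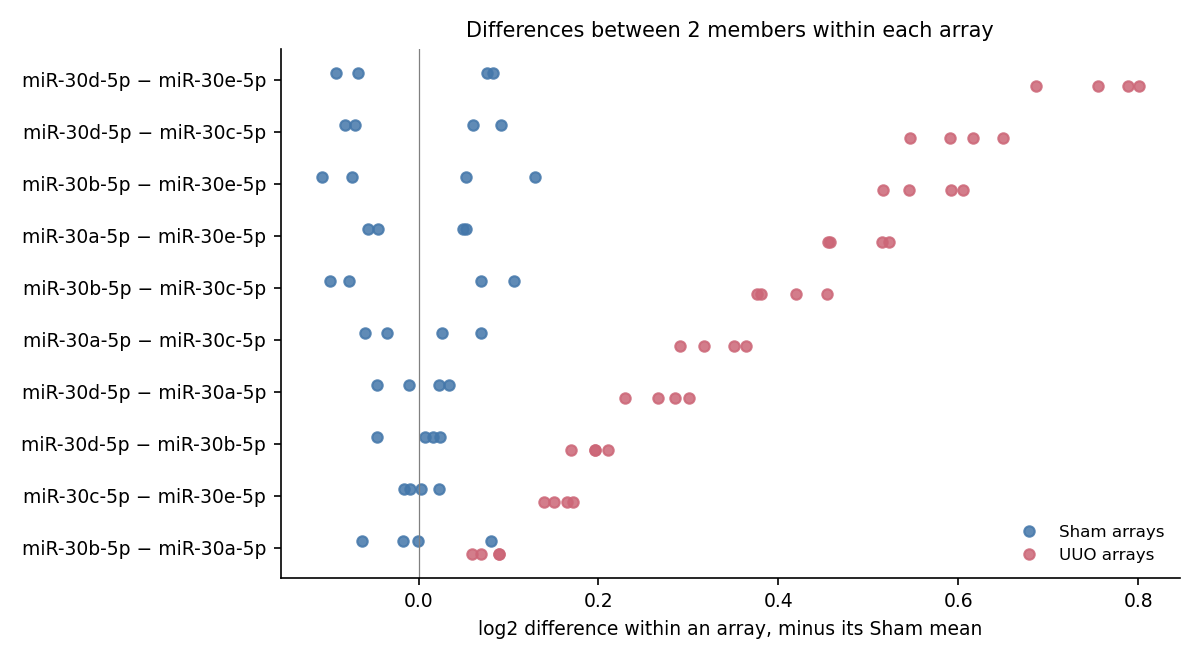
Log2 difference between a pair of miR-30 5p arms within each array, minus the mean of that difference over the Sham arrays (horizontal axis), with 1 point per Sham or UUO array and each pair written so that UUO lies to the right. The groups are apart in every pair but miR-30b-5p minus miR-30a-5p, and furthest apart, by 0.76 in their means, for miR-30d-5p minus miR-30e-5p.

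The 3p arms are the other strand of the same hairpins, usually the less abundant strand. All 6 of them were tested and all 6 were called lower, beside 27.7% of all tested, with a median log2 fold change of -0.79. On chromosome 4, miR-30e-3p fell by 1.11 ± 0.07 (log2, ± SE, as for the others) and miR-30c-1-3p by 1.53 ± 0.11 with its brightest probe. The size of the miR-30c-1-3p change depended on the probe and the signal: it was -0.67 with the second probe, -0.61 with the mean of all probes, -0.60 with normexp background correction, -0.99 with the floor doubled, -2.58 in the deposited ratios and -2.62 with total signal, called lower in each. On chromosome 1, miR-30a-3p fell by 0.91 ± 0.08 and miR-30c-2-3p by 0.67 ± 0.06. On chromosome 15, miR-30d-3p fell by 0.48 ± 0.11 and miR-30b-3p by 0.42 ± 0.14.

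miR-30b-3p was the weakest of these calls. It read -3.80, -4.42, -4.10 and -3.86 in Sham 1, 2, 3 and 8 and -4.40, -4.32, -4.54 and -4.62 in UUO 1 to 4. Sham 2 was among the UUO arrays, all values were near the floor of -4.89 set for dim probes, and the limma adjusted p was 0.0258. The call was lost without Sham 1, Sham 8, UUO 3 or UUO 4, with log2 fold changes of -0.34, -0.36, -0.40 and -0.37, and it was lost under 7 other planned settings. The miR-30d-3p call was lost under 4 planned settings. These were control features (-0.19, limma adjusted p = 0.176), no scaling (-0.28, 0.0655), no detection filter (-0.48, 0.0614) and the floor doubled. With the floor doubled every miR-30d-3p value lay at the floor, so that setting could show no difference.

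The 3p arms of the pair of miR-30c hairpins have names and probes of their own, unlike miR-30c-5p. With its brightest probe, miR-30c-1-3p read -3.12, -2.82, -2.96 and -2.71 in Sham 1, 2, 3 and 8 and -4.64, -4.46, -4.32 and -4.30 in UUO 1 to 4. miR-30c-2-3p read -2.17, -2.30, -2.32 and -2.12 in Sham and -2.81, -2.83, -2.96 and -2.96 in UUO. Neither overlapped between groups, and miR-30c-1-3p minus miR-30c-2-3p went from -0.68 ± 0.19 to -1.54 ± 0.23 (SD, n = 4 each). The order of the pair turned with the probe. With the second probe miR-30c-1-3p was at -0.67 and miR-30c-2-3p at -0.80 (log2 fold change). With the mean of all probes they were at -0.61 and -0.73. The second probe of miR-30c-1-3p was detected on 4 arrays, at 22.1 ± 4.36 intensity units in Sham and 7.14 ± 2.55 in UUO. Its dimmer probes were detected on 3 and 2 arrays. Values under the floor were raised to it, which shrinks the change of a dim probe. The turn rests on such probes, so these data give no settled order between the arms. The comparison was added after the values were seen and is given without a test.

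Within an array, the 5p and 3p arms differed in change in 4 of 6 comparisons (exact permutation p = 0.0286, adjusted 0.0429 over the 6). Since miR-30c-5p comes from both Mir30c-1 and Mir30c-2, its comparisons with either 3p arm are not of arms of a single hairpin. The share among arms of other hairpins is not given here. miR-30a-5p fell less than its 3p arm by 0.15. miR-30b-5p fell further than its 3p arm by 0.25, or by 0.16 without Sham 2. miR-30c-5p fell further than miR-30c-2-3p by 0.42, and miR-30e-5p further than its 3p arm by 0.13. For miR-30d the difference was -0.00 (exact permutation p = 0.971). miR-30c-5p against miR-30c-1-3p gave 0.44 with overlapping groups (exact permutation p = 0.0571, adjusted 0.0686). These arm differences depended on the probe and the normalization. Under quantile normalization those of miR-30b and miR-30e turned sign, and none of the 4 stayed under the threshold. With the second brightest probe all 4 kept their sign but were smaller, and none stayed under the threshold. The adjusted exact permutation p was 0.0571 for miR-30a, miR-30e and miR-30c-5p against miR-30c-2-3p, and 0.371 for miR-30b. With 4 arrays against 4 it depends on how many of the 6 comparisons reach the smallest p, so the lost threshold alone shows no lost difference. miR-30c-5p against miR-30c-1-3p became -0.41, with a second probe of miR-30c-1-3p whose change the floor limits.

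**Figure D3:**
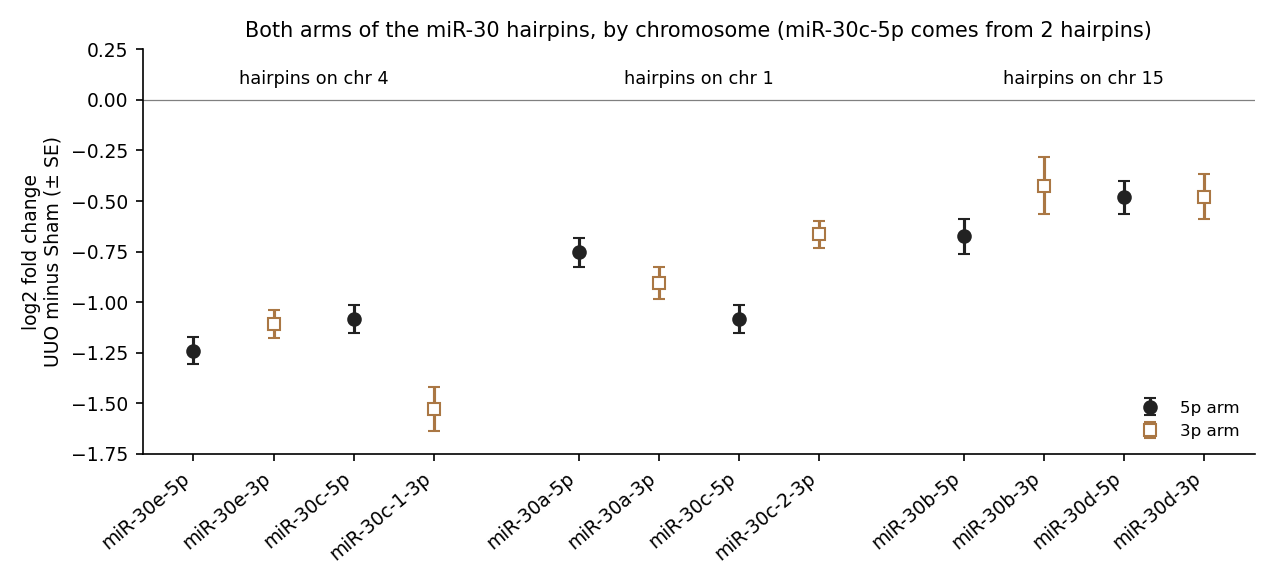
Log2 fold change of UUO over Sham (points, with the limma SE as bars) for the 5p arm and the 3p arm of each miR-30 hairpin, grouped by chromosome, each read by its brightest probe; miR-30c-5p is drawn at both of its loci. All 11 arms lie below 0, from -1.53 for miR-30c-1-3p, which was at -0.67 with its second probe, to -0.42 for miR-30b-3p.

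As a group, the 5 members made up 4.22%, 3.82%, 3.91% and 4.27% of the summed scaled signal of all tested miRNAs in Sham 1, 2, 3 and 8. In UUO 1 to 4 the shares were 2.48%, 2.38%, 2.44% and 2.25%. Every UUO share was below every Sham share. Probes differ in brightness per molecule, so these are shares of signal and not of molecules.

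The direction of the fall held under 8 settings of scaling and signal, while its size did not. The setting moved the median of all tested miRNAs from -0.23 with the Feature Extraction total signal to 0.34 with control features. The log2 fold change ran from -1.58 to -0.95 for miR-30e-5p, -1.42 to -0.80 for miR-30c-5p, -1.09 to -0.47 for miR-30a-5p and -1.01 to -0.39 for miR-30b-5p, and limma called these 4 lower in all 8 settings. For miR-30d-5p it ran from -0.82 to -0.20 and was called in 7 of 8. The background called lower was 27.7% in the setting used throughout, 20.6% with the percentile over all probes, 18.9% without scaling, 39.2% with quantile normalization, 15.7% with control features, 32.7% with normexp background correction, 43.5% with total signal and 41.5% in the deposited ratio table. Scaled to control features, it was -0.20 ± 0.09 with a limma adjusted p of 0.0763.

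Relative to the median of all tested miRNAs in the same setting, the ranges were narrower. They were -1.35 to -1.06 for miR-30e-5p, -1.19 to -1.04 for miR-30c-5p, -0.85 to -0.46 for miR-30a-5p, -0.78 to -0.43 for miR-30b-5p and -0.58 to -0.43 for miR-30d-5p. The members kept the order e, c, a, b, d, from the largest fall to the smallest, in all settings but quantile normalization, where it was c, e, d, a, b.

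**Figure D4:**
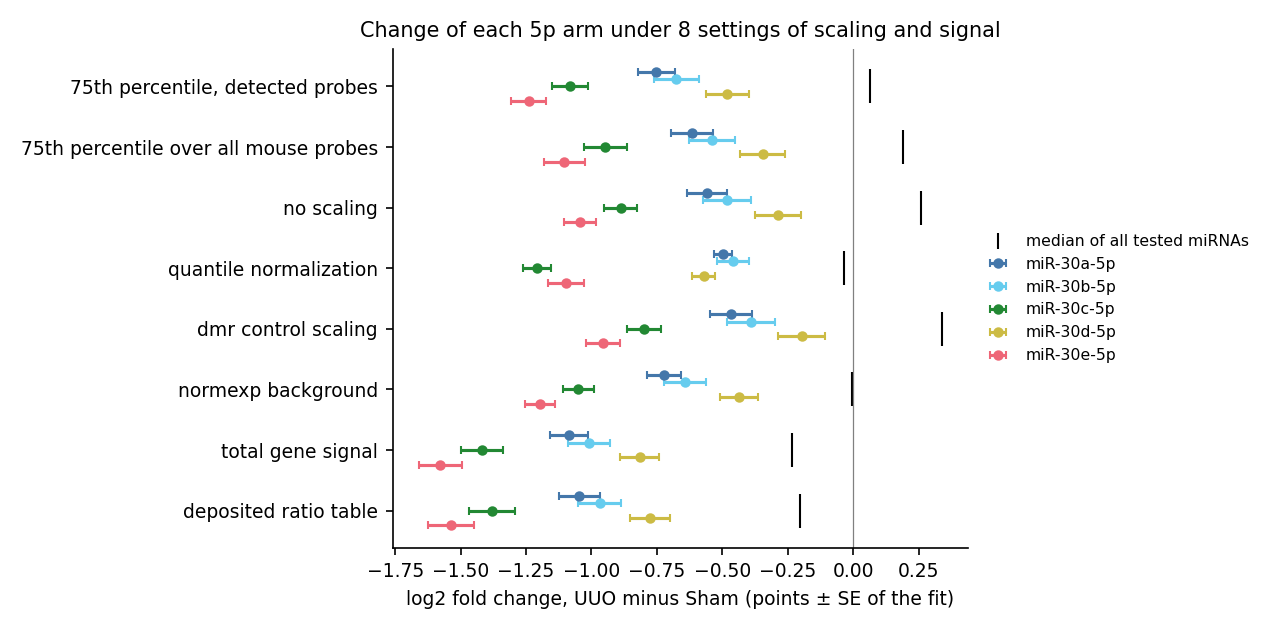
Log2 fold change of UUO over Sham (horizontal axis, points with the limma SE) of each miR-30 5p arm under 8 settings of scaling and signal, with the median of all tested miRNAs as a black tick. All points lie below 0, and the setting moves the median from -0.23 to 0.34. Compared with the setting used throughout, the members move against the median under normexp background correction. Under quantile normalization some of them do.

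Lists of miRNAs that mark cell types moved with the same groups, and their part in the fall of the miR-30 members was not tested. Of 11 miRNAs listed for kidney tubule and epithelium, 10 were tested, 7 were called lower (27.7% of all tested were), 3 were not called and none was called higher. Their summed scaled signal was 38.6 to 39.9 in Sham and 24.4 to 29.0 in UUO, with a median log2 fold change of -0.39, and miR-215-5p was not detected on any array. Among the defining ones, miR-192-5p fell by 1.14 ± 0.11 on the log2 scale, miR-194-5p by 1.08 ± 0.11 and miR-200b-3p by 0.34 ± 0.06, while miR-204-5p was at 0.10 ± 0.05 (limma adjusted p = 0.0906) and its sign turned with the scaling. miR-200b-3p was not called with control features (-0.052, limma adjusted p = 0.492) or without scaling (-0.14, 0.0627).

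All 8 tested of 9 leukocyte miRNAs rose (39.7% of all tested were called higher), with a summed signal of 2.45 to 2.90 in Sham and 8.91 to 10.01 in UUO. miR-142a-3p, which marks blood cells, rose by 2.28 (log2) and miR-223-3p, which marks myeloid cells, by 2.30, while miR-223-5p was not detected anywhere and miR-511-3p not in Sham. Of 7 fibroblast and smooth muscle miRNAs, 6 rose and 1 was not called, from a sum of 6.21 to 6.85 in Sham to 15.9 to 18.4 in UUO. miR-199a-5p rose by 1.95 and miR-214-3p by 2.42, and miR-214-5p was not detected in Sham. Of the pair of endothelial miRNAs 1 was called lower, with sums of 12.5 to 13.2 and 10.67 to 12.4, and miR-126a-3p was at -0.14 (limma adjusted p = 0.0578), with a sign that turned with the scaling. The liver miRNA miR-122-5p was called lower and was not detected in UUO, and neither of 2 striated muscle miRNAs was called.

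Outside the family, the miRNAs whose pattern over the 8 arrays was most like the mean of the members were found by the root mean square difference of log2 values, each centred on its own mean. They were miR-378c (0.0560), miR-29c-3p (0.0619), miR-378a-3p (0.0758), miR-101c (0.0775) and miR-378d (0.0812). Their log2 fold changes were -0.91, -0.91, -0.96, -0.86 and -0.99. The members themselves were 0.0492 (miR-30a-5p), 0.0932 (miR-30b-5p), 0.123 (miR-30c-5p), 0.185 (miR-30d-5p) and 0.200 (miR-30e-5p) from their mean, so 4 of 5 lay further from it than these 5 miRNAs did. These 5 were picked as the nearest of all tested outside the family and the members were not picked by distance. The comparison therefore does not measure how alike the members are.

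The nearest outside miRNA to a single member was miR-29b-3p for both miR-30a-5p (0.0594) and miR-30b-5p (0.0781), miR-378a-5p for miR-30c-5p (0.0409), miR-200a-3p for miR-30d-5p (0.0378) and miR-190a-5p for miR-30e-5p (0.0632). Within the family, miR-30a-5p and miR-30b-5p were nearest to each other, at 0.0539, although they come from different chromosomes. miR-30c-5p and miR-30e-5p were 0.0796 apart, and miR-30d-5p and miR-30e-5p furthest, at 0.384.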

How the data were processed

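Spot intensities were made by the authors with Agilent Feature Extraction 10.7.3.1, per the file headers: a spatial background was subtracted, probe positions are on mm9, and nothing was normalized between arrays. A deposited table of ratios per miRNA was an alternative. Its values equal the Feature Extraction total signal per miRNA times 1 factor per array (log2 0.15 to 0.36 in Sham, -0.38 to -0.14 in UUO) over a row term, to 9.66e-06 on the log2 scale. No source used here states the basis of that factor.

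The spots of a probe were averaged without outlier spots (2.64% to 2.95% per array), a probe was detected where over 50% of its spots were well above background, arrays were scaled to the 75th percentile of the 623 probes detected on all 8, values were floored at -4.89 (log2), and the brightest probe of each miRNA was kept. limma 3.58.1 (R 4.3.3) compared the groups over 408 miRNAs with Benjamini-Hochberg adjustment, after tests on simulated data. Differences within arrays were tested with SciPy 1.17.1.

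Named are the members, their 3p arms, miRNAs with the same seed, the 5 nearest patterns and the nearest to each member, and defining markers. The members and lists were chosen with earlier results of these data known. The number of arrays limits the precision.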

Additional observations from a re-analysis of the deposited data

Results flagged for a closer look

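In 5 of 90 groups of 4 arrays examined, 1 array lay far from the other 3, measured as its gap to the nearest divided by the group's range, beyond Dixon's 95% limit. Chance sets apart about 1 in 20 groups. In miR-30b-5p minus miR-30b-3p the ratio was 0.969 among the Sham arrays, where Sham 2 was at 7.52 and the others at 7.17 to 7.18 (log2). In miR-30d-5p minus miR-30d-3p it was 0.854 in UUO, with UUO 1 at 4.93 and the others at 5.16 to 5.20. In miR-30a-5p minus miR-30a-3p it was 0.830 in UUO, with UUO 4 at 4.12 and the others at 4.15 to 4.16. Sham 8 stood apart for miR-214-3p (0.987, at -2.31 against -2.38) and for miR-378a-5p (0.876, at -2.43 against -2.48 to -2.47). None of the 5 members was set apart in either group.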

How the results depend on the processing

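All 5 members were called lower in every fit that left out 1 array, with log2 fold changes of -0.78 to -0.71 (miR-30a-5p), -0.73 to -0.62 (miR-30b-5p), -1.12 to -1.03 (miR-30c-5p), -0.53 to -0.44 (miR-30d-5p) and -1.28 to -1.18 (miR-30e-5p), and with 147 to 171 miRNAs called higher and 106 to 117 (26.0% to 28.7%) lower. miRNAs called lower numbered 113, against 64 with control features, where miR-30d-5p was -0.20 and not called, 207 with the deposited ratios and 217 with the total signal. Replicate numbers showed no pairing of the samples, with correlations of deviations of -0.00, 0.12 and -0.30. Arrays with unlike numbers ran from -0.45 to 0.38. So few pairs cannot exclude pairing, and arrays of the same number also share a slide column. With the numbers as a block over arrays 1 to 3, 142 miRNAs were called higher and 84 (20.6% of 408) lower. All 5 members were among the lower ones, at -0.67, -0.60, -1.01, -0.40 and -1.17. The members' differences that turned under quantile normalization are 0.073, 0.11 and -0.11, as given above. Arm differences, 5p minus 3p, moved most. With the second probe miR-30a gave 0.11, miR-30b -0.084, miR-30c-5p against miR-30c-2-3p -0.28 and miR-30e -0.083, none past the threshold after adjustment, and miR-30c-5p against miR-30c-1-3p -0.41. Under quantile normalization miR-30a gave 0.65, miR-30b 0.041, miR-30c-5p against miR-30c-2-3p -0.21 and miR-30e 0.25. The signs of miR-30b and miR-30e turned. None was past the threshold (adjusted exact permutation p = 0.0857, 0.771, 0.129 and 0.0857). With the total signal or the deposited ratios miR-30b gave -0.11, miR-30c-5p against miR-30c-1-3p 1.20 and miR-30d 0.050. With normexp background and with the mean of all probes, miR-30c-5p against miR-30c-1-3p gave -0.45 and -0.47, and miR-30d -0.30 and -0.28. miR-126a-3p turned to 0.15 with control features, 0.058 without scaling and 0.14 with quantile normalization. miR-204-5p turned to -0.20 with the deposited ratios, -0.29 with quantile normalization and -0.24 with the total signal. The causes were not tested. Signal over background limits miR-30b-3p, miR-30d-3p, miR-30c-1-3p and miR-190a-5p, which lay near the floor in UUO.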
